A study of Mus musculus with 8 samples.

Results

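Metallothioneins are small, cysteine-rich proteins that bind zinc and copper in the cytosol and can scavenge oxidants. The genes for metallothionein 1 and 2 are switched on together by zinc through the transcription factor MTF1, and also by glucocorticoids, by cytokines of the interleukin 6 family and by oxidative stress. In mouse pancreas they are made by the acinar cells, which secrete zinc with digestive enzymes, and by other cell types. The 2 genes Mt1 and Mt2 were followed here in whole pancreas. Their probe sets were all those whose platform annotation gave the symbol Mt1 (93573_at) or Mt2 (101561_at), 2 of the 12488 probe sets on each array and 2 of the 8251 genes that had a probe set with a single symbol.

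The study measured 8 Affymetrix arrays, 2 for each of 4 groups of mice aged 3 weeks. BDC2.5/NOD.scid mice carry the BDC2.5 transgene, a rearranged T cell receptor cloned from a CD4 cell that causes diabetes, together with the scid mutation, which blocks the assembly of other lymphocyte receptors. BDC2.5/NOD mice carry the transgene alone, NOD.scid mice the scid mutation alone, and NOD mice, the strain shared by all groups, neither. Each RNA came from 2 isolations of 6 animals each, which were pooled. Nothing in the labels says that paired arrays hold RNA of different pools, so p-values reflect array-to-array spread, which may be technical. The labels name no agent given to any group, and which T cells were present in the tissue was not measured on these arrays.

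The regulatory sequence just upstream of each gene is shown because both genes moved together in every comparison described below. Mt4, Mt3, Mt2 and Mt1 follow each other in this order on mouse chromosome 8, with only a predicted long noncoding RNA gene between Mt3 and Mt2, and the RefSeq start of Mt1 lies 6471 bases beyond that of Mt2 on the same strand. The stretches run 5′ to 3′ on the plus strand of GRCm38.p6, from 250 bases before the RefSeq start to 30 bases after it, at chr8:94178839-94179118 for Mt1 and chr8:94172368-94172647 for Mt2. Capitals mark matches on either strand to the core of the metal response element bound by MTF1, searched as TGCACNC and TGCGCNC.
Mt1: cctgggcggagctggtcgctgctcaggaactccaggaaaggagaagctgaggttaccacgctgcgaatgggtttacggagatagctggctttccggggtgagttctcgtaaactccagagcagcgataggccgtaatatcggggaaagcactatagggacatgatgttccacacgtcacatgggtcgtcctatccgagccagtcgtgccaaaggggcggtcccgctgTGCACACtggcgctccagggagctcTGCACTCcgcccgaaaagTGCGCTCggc
Mt2: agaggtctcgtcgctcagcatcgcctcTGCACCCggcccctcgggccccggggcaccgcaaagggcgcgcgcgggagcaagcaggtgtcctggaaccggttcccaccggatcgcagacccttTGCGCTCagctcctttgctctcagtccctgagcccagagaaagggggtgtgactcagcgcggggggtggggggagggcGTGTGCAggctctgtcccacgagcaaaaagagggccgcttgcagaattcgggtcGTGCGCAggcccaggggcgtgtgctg

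The Mt1 stretch held 3 such matches, all on the plus strand, starting at positions -23, 3 and 21 from the RefSeq start. The Mt2 stretch held 4, starting at positions -223 and -128 on the plus strand and -50 and 5 on the minus strand. No match overlapped another. In the same table of 32851 mouse promoters of 300 bases, 1.97% held at least 3 matches and 0.517% at least 4. The promoters of Mt3 and Mt4 held 1 match each, a count reached by 25.7% of promoters. The core of the antioxidant response element, searched on both strands as TGACNNNGC, was found at position -79 of Mt2 and not in the Mt1 window, and 12.4% of promoters held at least 1. The RefSeq start of Mt1 may not be its main start site, and positions, counts and missing matches hold only for this window. Neither window held TTCNNNGAA, a STAT factor site found in 8.3% of promoters, or a full palindromic glucocorticoid response element, found in 0.00913%. These matches describe letters in the reference sequence, and no binding was measured.

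**Figure D1:**
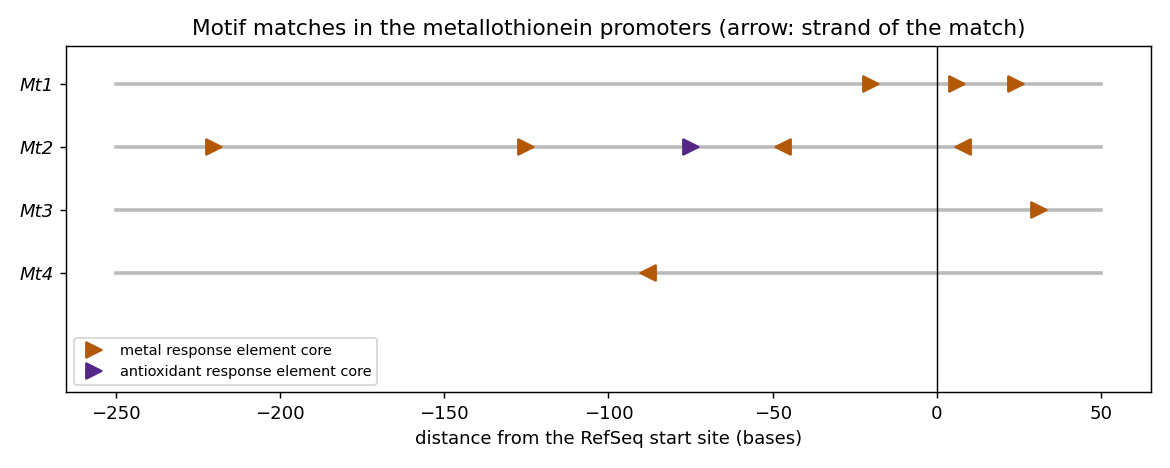
Positions of motif matches (arrowheads pointing along the strand of the match) in the promoters of the 4 measured metallothionein genes, from 250 bases before to 50 bases after the RefSeq start (vertical line). Mt1 and Mt2 hold 3 and 4 metal response element cores, and Mt3 and Mt4 hold 1 each.

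Both genes were highest in the pancreas of BDC2.5/NOD.scid mice, intermediate in NOD mice, and lowest in BDC2.5/NOD and NOD.scid mice. All values are the deposited values on a log2 scale, where 1 unit is a doubling. Mt1 read 11.34 and 11.20 in BDC2.5/NOD.scid, 9.88 and 9.77 in BDC2.5/NOD, 9.70 and 9.78 in NOD.scid, and 10.44 and 10.38 in NOD. The BDC2.5/NOD.scid arrays lay above all others and the NOD arrays above the remaining 4, while BDC2.5/NOD and NOD.scid overlapped. Mt2 read 11.00 and 10.82 in BDC2.5/NOD.scid, 9.53 and 9.56 in BDC2.5/NOD, 9.46 and 9.52 in NOD.scid, and 9.93 and 9.97 in NOD. The order of the groups was that of Mt1, with the BDC2.5/NOD arrays just above those of NOD.scid.

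The groups differed by more than the arrays within them. The SD within a pair was 0.04 to 0.10 for Mt1 and 0.03 to 0.13 for Mt2, and the widest pair of both was that of BDC2.5/NOD.scid. In an exact permutation test of the one-way F statistic over all 105 ways of forming 4 pairs from the 8 arrays, Mt2 gave p = 0.00952, the smallest that this design allows, and Mt1 gave p = 0.019 (adjusted p = 0.0286 for each over 3 tests).

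**Figure D2:**
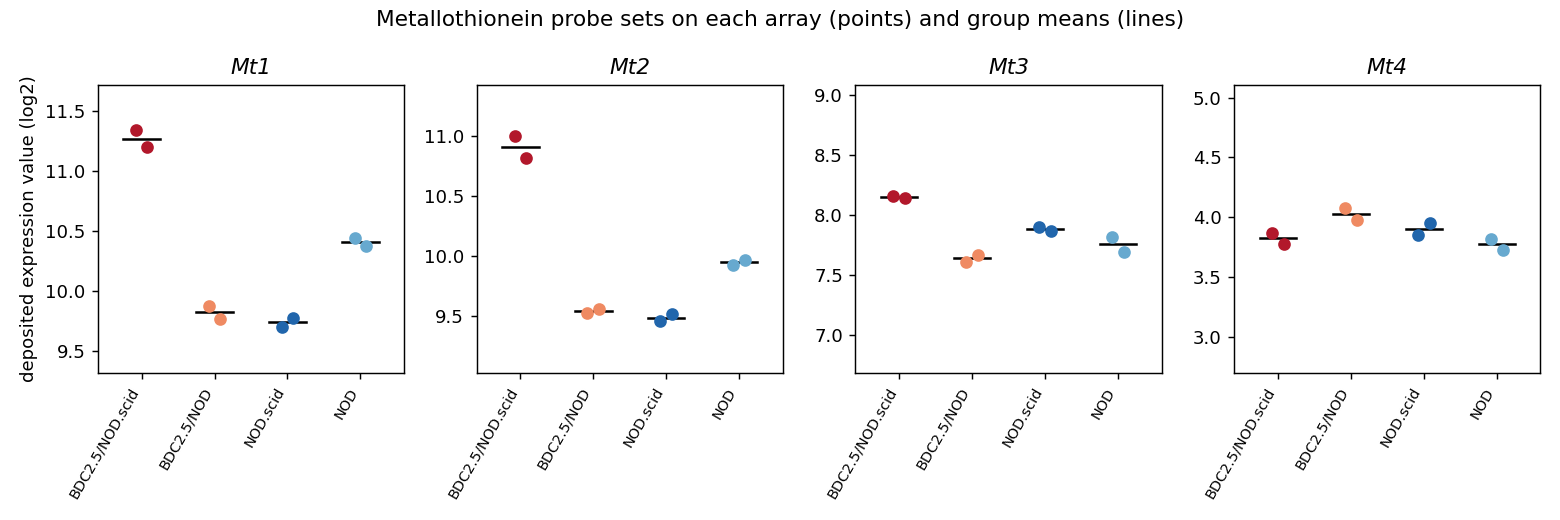
Deposited log2 values of the probe sets of Mt1, Mt2, Mt3 and Mt4 on each array (points) with the mean of each group (lines, 2 arrays a group), every panel spanning 2.4 log2 units around its own centre. Mt1 and Mt2 are high in BDC2.5/NOD.scid (11.27 and 10.91 on average) and low in BDC2.5/NOD and NOD.scid, Mt3 spans a narrower range, and Mt4 stays at 3.73 to 4.08.

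On the NOD.scid background, Mt1 and Mt2 were each more than doubled in mice with the transgene. Mt1 averaged 11.27 ± 0.10 in BDC2.5/NOD.scid and 9.74 ± 0.05 in NOD.scid (SD, n = 2 each), and rose 2.89-fold (log2 difference 1.53, SE 0.084, limma adjusted p = 1.7e-07). Mt2 averaged 10.91 ± 0.13 in BDC2.5/NOD.scid and 9.49 ± 0.04 in NOD.scid, and rose 2.68-fold (log2 difference 1.42, SE 0.0839, limma adjusted p = 3.68e-07). Of all 12422 probe sets tested, 6.4% passed an adjusted p of 0.05 in this comparison (2.37% higher and 4.03% lower), and Mt1 and Mt2 stood 39th and 47th from the top by log2 difference. In whole tissue, a change in the number of cells that make these transcripts and a change in the amount per cell cannot be told apart.

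On the NOD background, the 2 genes were lower in mice with the transgene. Mt1 averaged 9.83 ± 0.08 in BDC2.5/NOD and 10.41 ± 0.04 in NOD, and fell by 0.58 on the log2 scale (95% confidence interval -0.77 to -0.40, limma adjusted p = 0.00122). Mt2 averaged 9.54 ± 0.03 in BDC2.5/NOD and 9.95 ± 0.03 in NOD, a log2 difference of -0.41 (95% confidence interval -0.59 to -0.22, limma adjusted p = 0.0113). Of all probe sets, 7.97% passed here (3.91% higher and 4.06% lower). The call of Mt2 was lost under quantile normalization (log2 difference -0.25, limma adjusted p = 0.0873), with the pair of BDC2.5/NOD arrays averaged into 1 sample (limma adjusted p = 0.121), and without any 1 of the 4 arrays compared. Those limma adjusted p were 0.131 and 0.0871 without BDC2.5/NOD replicates 1 and 2, and 0.0579 and 0.0748 without NOD replicates 1 and 2.

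The scid mutation alone went with lower levels of both genes. Between NOD.scid and NOD the log2 difference was -0.67 for Mt1 (95% confidence interval -0.86 to -0.49, limma adjusted p = 0.00104) and -0.46 for Mt2 (95% confidence interval -0.64 to -0.28, limma adjusted p = 0.0137). In this comparison 2.35% of all probe sets passed (0.741% higher and 1.61% lower), and Mt1 stood 50th from the lowest of the 12422. The call of Mt2 was lost without any 1 of the 4 arrays compared, with limma adjusted p of 0.0542 and 0.065 without NOD.scid replicates 1 and 2, and of 0.0704 and 0.125 without NOD replicates 1 and 2.

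In mice with the transgene the scid mutation went with the opposite direction. Mt1 was 2.72-fold higher in BDC2.5/NOD.scid than in BDC2.5/NOD (log2 difference 1.44, limma adjusted p = 5.82e-07) and Mt2 2.58-fold higher (log2 difference 1.36, limma adjusted p = 9.19e-07), where 8.35% of all probe sets passed (2.99% higher and 5.35% lower). Against NOD, the levels in BDC2.5/NOD.scid were 1.82-fold higher for Mt1 (log2 difference 0.86, limma adjusted p = 4.7e-05) and 1.95-fold higher for Mt2 (log2 difference 0.96, limma adjusted p = 1.69e-05), where 7.58% passed (2.5% higher and 5.07% lower). The lowest neighbours in the order, BDC2.5/NOD and NOD.scid, differed by 0.09 for Mt1 (95% confidence interval -0.09 to 0.27) and by 0.06 for Mt2 (-0.13 to 0.24). Neither passed, while 8.67% of all probe sets did (4.75% higher and 3.92% lower).

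**Figure D3:**
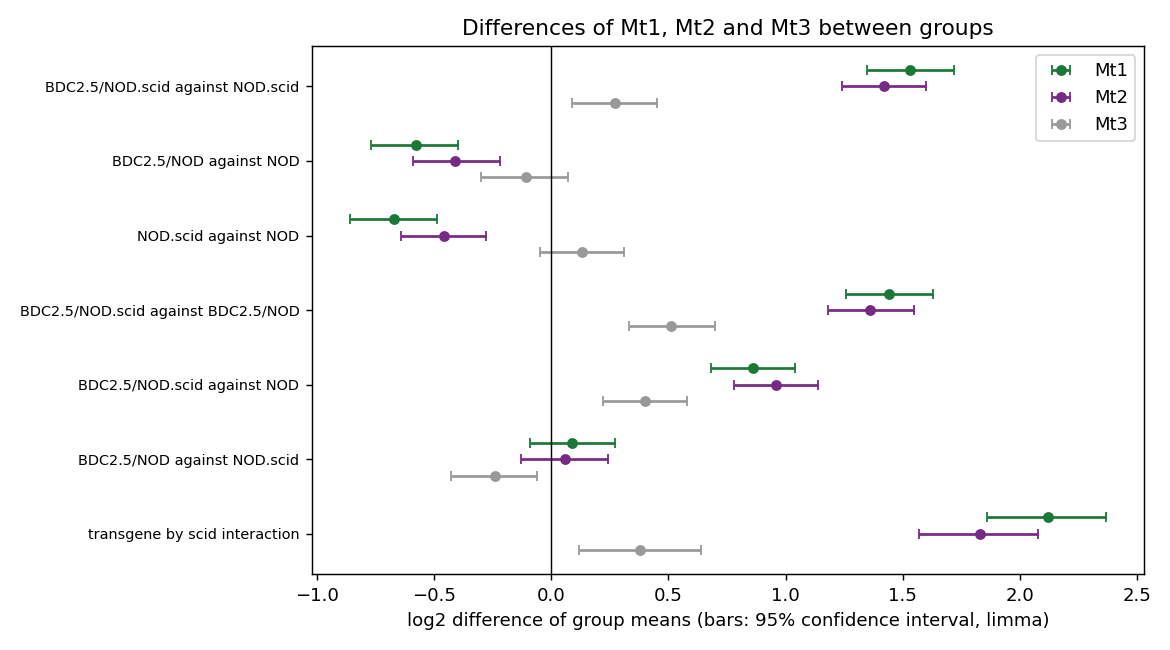
Log2 differences of group means for Mt1, Mt2 and Mt3 in the 6 pairs of groups and in the interaction (points), with limma's 95% confidence intervals (bars) and a line at 0. Mt1 and Mt2 lie above 0 wherever BDC2.5/NOD.scid is compared with another group, below 0 for BDC2.5/NOD against NOD and for NOD.scid against NOD, and at 0.09 and 0.06 for BDC2.5/NOD against NOD.scid.

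The transgene and the scid mutation therefore differed from NOD in the same direction when each was present alone and in the other direction when combined. The sum of the log2 differences of the transgene alone and of scid alone was -1.26 for Mt1, where the combination measured 0.86 against NOD. For Mt2 the sum was -0.87 and the combination measured 0.96. The interaction, which is the transgene difference on NOD.scid minus that on NOD, was 2.12 for Mt1 (SE 0.119, limma adjusted p = 6.08e-07) and 1.83 for Mt2 (SE 0.119, limma adjusted p = 1.86e-06), with 4.72% of all probe sets past the threshold (2.22% higher and 2.5% lower). By size the interaction of Mt1 stood 19th and that of Mt2 25th from the top. It passed in each of the 18 alternative settings for both genes.

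The 2 genes followed each other closely. The per-array difference of Mt1 minus Mt2 removes what they share. It was 0.34 and 0.38 in BDC2.5/NOD.scid, 0.36 and 0.21 in BDC2.5/NOD, 0.24 and 0.26 in NOD.scid, and 0.51 and 0.41 in NOD. The NOD arrays held the highest values, but the groups did not differ past the threshold (exact permutation p = 0.114). The levels of the 2 probe sets are not compared as such, since probe sets differ in brightness, and whether either also binds transcripts of the other gene was not tested.

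The other measured metallothioneins showed less. Mt3, best known from brain, read 8.16 and 8.14 in BDC2.5/NOD.scid, 7.61 and 7.67 in BDC2.5/NOD, 7.90 and 7.87 in NOD.scid, and 7.82 and 7.69 in NOD. It was higher in BDC2.5/NOD.scid than in BDC2.5/NOD (log2 difference 0.51, limma adjusted p = 0.00244) and than in NOD (log2 difference 0.40, limma adjusted p = 0.0132). Against NOD.scid its difference of 0.27 did not pass (limma adjusted p = 0.0889), and neither did its interaction of 0.38 (limma adjusted p = 0.102). Mt4, known from stratified epithelium, lay at 3.73 to 4.08 on the 8 arrays, below the array medians of 4.24 to 4.30, and passed in no comparison.

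The regulator and the zinc exporter most closely tied to these genes did not pass in any of the 7 comparisons. Mtf1, which encodes MTF1, averaged 5.61 ± 0.04 in BDC2.5/NOD.scid, 5.66 ± 0.08 in BDC2.5/NOD, 5.57 ± 0.01 in NOD.scid and 5.46 ± 0.01 in NOD. Slc30a1, a zinc exporter of the plasma membrane that MTF1 also switches on, read 2.37 to 2.70 on the 8 arrays, close to the lowest value in the table, 2.021, where the arrays resolve little. Nr3c1, the glucocorticoid receptor, was as dim, at 2.40 to 2.97.

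Of the genes for zinc and copper handling, 2 of 23 were called with the transgene on each background and between NOD.scid and NOD, where 6.4%, 7.97% and 2.35% of all probe sets were. With the transgene on NOD.scid, 2 of 23 measured genes were higher and none lower, against 2.37% and 4.03% of all probe sets, and the median log2 difference was 0.03, against -0.0045 over all probe sets. They were Cp, the copper-carrying ferroxidase ceruloplasmin (log2 difference 1.39, limma adjusted p = 1.66e-06), and Slc30a4, a transporter that moves zinc into vesicles (log2 difference 0.36, limma adjusted p = 0.0369). A dim second probe set of Slc30a4 gave -0.02 and did not pass. On NOD, Slc39a7, which releases zinc from the secretory pathway, rose by 0.42 and Cox17, a mitochondrial copper chaperone, fell by 0.78 with the transgene, and the other 21 did not pass, against 3.91% of all probe sets higher and 4.06% lower. Between NOD.scid and NOD, Cp and Slc30a4 were lower, at -0.48 and -0.43, and no gene of the list was higher, against 1.61% and 0.741% of all probe sets. More were called between BDC2.5/NOD.scid and BDC2.5/NOD, 3 of 23 higher and 2 lower, against 2.99% and 5.35% of all probe sets. Between BDC2.5/NOD.scid and NOD, 2 were higher and 2 lower, against 2.5% and 5.07%. The list median was -0.01 in both.

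Genes of the antioxidant programme governed by NRF2, listed together with the regulator genes Nfe2l2 and Keap1, were called in both directions, with list medians near 0. With the transgene on NOD.scid, 1 of 20 was higher and 3 were lower, against 2.37% and 4.03% of all probe sets, with a median of -0.05. Gpx3, a secreted glutathione peroxidase, rose by 0.74, while Gpx4, which reduces lipid peroxides, fell by 0.70, Gstp1, a glutathione transferase, fell by 0.44, and Nfe2l2, which encodes NRF2, fell by 0.40. In BDC2.5/NOD against NOD, Gstm1 and Nfe2l2 fell, by 0.57 and 0.45, and none rose, against 4.06% lower and 3.91% higher over all probe sets, so that both called genes went the way of Mt1 and Mt2. A second probe set of Gstm1 gave -0.05 and did not pass. Between NOD.scid and NOD, Gpx4 rose by 0.52 and Txn1, thioredoxin, fell by 0.39, against 0.741% higher and 1.61% lower. Hmox1, heme oxygenase, averaged 6.40 in BDC2.5/NOD.scid, 6.20 in BDC2.5/NOD, 6.35 in NOD.scid and 6.08 in NOD, and passed only between BDC2.5/NOD.scid and NOD.

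Genes that glucocorticoids are known to induce, many of which also respond to other stress signals, were called mostly in comparisons with BDC2.5/NOD.scid. Their list also counts Nr3c1, the glucocorticoid receptor itself, which passed in no comparison. With the transgene on NOD.scid, 11 of 20 were higher and none lower, against 2.37% and 4.03% of all probe sets, and their median log2 difference was 0.72. Errfi1, an inhibitor of epidermal growth factor receptors, read 2.38 higher (SE 0.0946), Pdk4, a kinase that shuts off pyruvate oxidation, 2.32 higher, Ddit4, an inhibitor of mTORC1, 1.96 higher, and Fkbp5, a co-chaperone of the glucocorticoid receptor, 1.31 higher. In BDC2.5/NOD against NOD, 1 of 20 rose and 2 fell, against 3.91% and 4.06% of all probe sets, with a median of 0.07. Ddit4 rose by 0.79, and Sgk1, a kinase, and Pdk4 fell by 0.99 and 0.63. Between NOD.scid and NOD, none rose, and Sgk1, Errfi1 and Per1, a circadian clock gene, fell by 1.44, 0.77 and 0.47, against 1.61% of all probe sets lower. A second probe set of Errfi1 read 1.45 higher with the transgene on NOD.scid, and its -0.30 between NOD.scid and NOD did not pass. Between BDC2.5/NOD.scid and NOD, where Mt1 and Mt2 were higher, 9 of 20 were higher and 1 lower, against 2.5% and 5.07% of all probe sets, with a median of 0.37. The lower one was Sgk1 (log2 difference -0.50, limma adjusted p = 0.0342). Between BDC2.5/NOD and NOD.scid, where neither Mt1 nor Mt2 passed, 6 of 20 were higher and none lower, with a median of 0.19. Of all probe sets, 4.75% were higher and 3.92% lower there.

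In the list for interleukin 6, STAT3 and the acute phase, the genes called with the transgene were higher on both backgrounds, and most of the list did not pass. On NOD.scid, 9 of 23 genes were higher and none lower, against 2.37% and 4.03% of all probe sets, with a median of 0.36. On NOD, 8 of 23 were higher and none lower, with a median of 0.22, against 3.91% of all probe sets higher and 4.06% lower. Reg3g, a secreted lectin, read 4.74 higher on NOD.scid and 5.38 higher on NOD. Its relative Reg3b, made by stressed acinar cells, averaged 12.88 in BDC2.5/NOD.scid, 12.93 in BDC2.5/NOD, 9.09 in NOD.scid and 7.83 in NOD, so that BDC2.5/NOD held high Reg3b beside low Mt1 and Mt2. Whether the probe sets of these lectins also bind each other's transcripts was not tested. Lrg1, an inflammation-induced glycoprotein, averaged 7.86 in BDC2.5/NOD.scid, 5.11 in BDC2.5/NOD, 4.23 in NOD.scid and 4.19 in NOD. Reg3a, a relative of Reg3g, read 2.78 higher on NOD.scid and 4.98 higher on NOD, and Itih4 read 1.32 and 3.06 higher. The interaction was above 0 for 5 called genes, with Lrg1 and Saa3 among them. It was below 0 for 3, with Reg3a and Itih4 among them, against 2.22% and 2.5% of all probe sets. Saa3, an acute-phase protein, read 2.75 higher on NOD.scid, and its 0.07 on NOD did not pass. Cebpd and Lcn2 stand both in this list and in that for glucocorticoids.

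**Figure D4:**
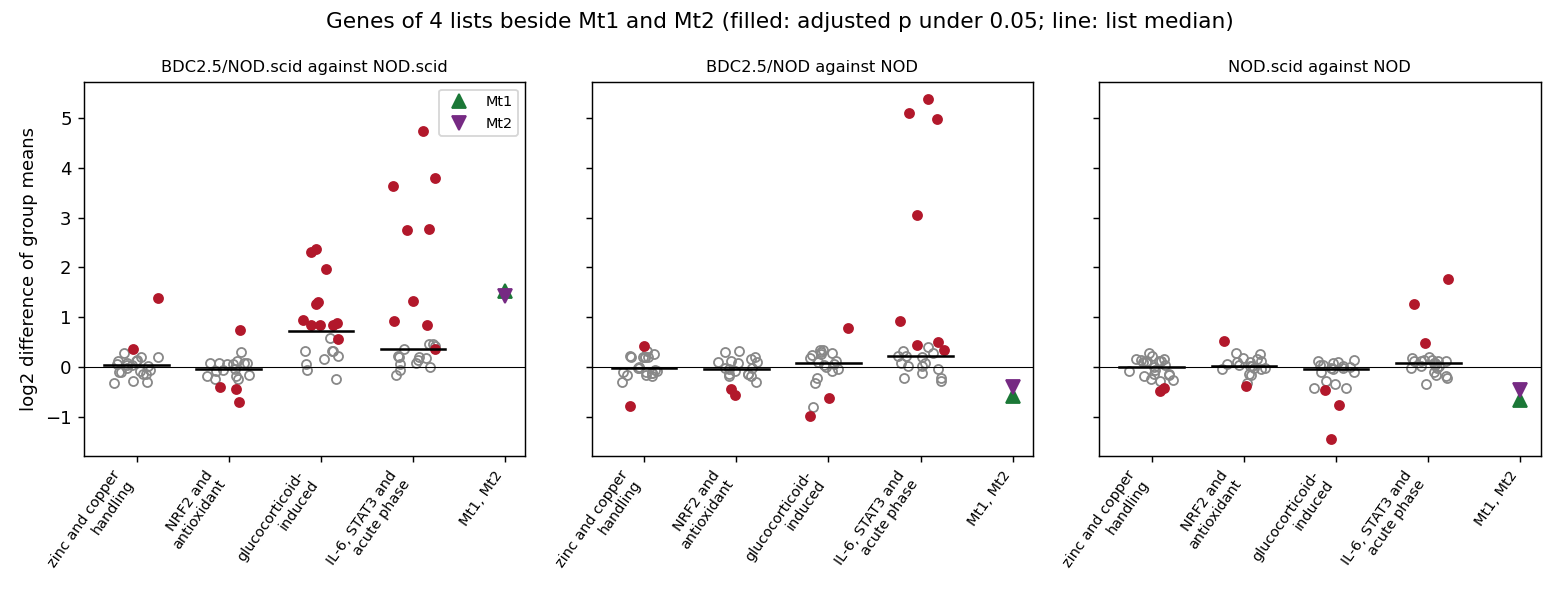
Log2 differences of the genes of 4 lists (points, filled where the limma adjusted p is under 0.05, with the list median as a line) beside those of Mt1 and Mt2 (triangles) in 3 comparisons. With the transgene on NOD.scid, 11 of 20 genes of the glucocorticoid list are called higher. Zinc and copper genes and antioxidant genes centre near 0 there. With the transgene on NOD, 3 genes of the acute-phase list exceed 4 while Mt1 and Mt2 lie below 0.

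The genes whose pattern over the 8 arrays was nearest to that of Mt1 and Mt2 were ranked by the root mean square difference, in log2 units, between values centred on their own mean. Among 8251 genes the median distance was 0.60, and that of Mt1 and of Mt2 to their common mean was 0.047. Because Mt1 and Mt2 make up that mean, their distance is equal and small by construction. It cannot be set against the distances of other genes. The 8 nearest were Gadd45b (0.16), a stress-response gene of the p38 pathway, Glul (0.19), glutamine synthetase, Cytip (0.19), a cytohesin-binding protein of blood cells, Cp (0.20), Pla2g7 (0.20), which degrades platelet-activating factor, Fos (0.21), a subunit of AP-1, Sat1 (0.21), an enzyme of polyamine breakdown, and Errfi1 (0.22). Because these genes were chosen for this pattern, their values are a description. Gadd45b read 5.33 and 4.87 in BDC2.5/NOD.scid, 3.55 and 3.32 in BDC2.5/NOD, 3.36 and 3.30 in NOD.scid, and 3.99 and 4.19 in NOD, which is the order of Mt1 without overlap between NOD and the other groups. Fos was high in BDC2.5/NOD.scid alone, at 4.13 on average, against 2.73, 2.70 and 2.79 in BDC2.5/NOD, NOD.scid and NOD. All these Fos averages lay below the array medians of 4.24 to 4.30. The lower ones were as dim as Nr3c1, where the arrays resolve little. Pla2g7 was as dim, at 3.95 in BDC2.5/NOD.scid and 2.68 to 2.99 in the other groups. Outside BDC2.5/NOD.scid, Glul averaged 3.07 to 3.34 and Gadd45b 3.33 to 4.09, also below the medians. For several of the 8 nearest genes another probe set moved less with the transgene on NOD.scid, at 0.56 for Gadd45b, 0.39 for Cytip, 0.36 for Fos and -0.00 for Glul. Those of Gadd45b, Fos and Glul were the brighter probe sets of their genes, and only that of Gadd45b passed. Errfi1 is ranked here by its probe set with 1.45 in that comparison, and the other, described above, read 2.38.

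**Figure D5:**
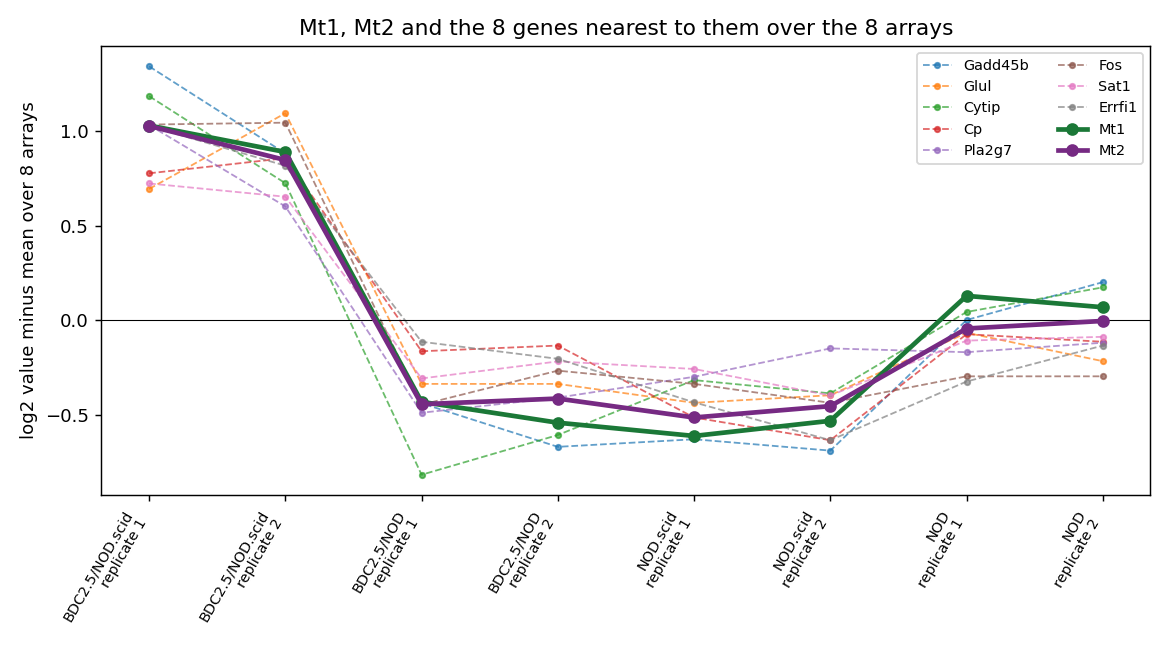
Log2 values minus their mean over the 8 arrays (vertical axis) for Mt1 and Mt2 (thick lines) and the 8 genes of nearest pattern (dashed lines), with the arrays of each group side by side. Lines join arrays only to guide the eye. All 10 genes are highest on the BDC2.5/NOD.scid arrays, and Mt1, Mt2, Gadd45b, Glul, Cytip, Cp and Sat1 are higher on both NOD arrays than on any array of BDC2.5/NOD and NOD.scid.

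Markers of some other cell types moved along with Mt1 and Mt2 in some comparisons and not in others, and their part in these results was not tested. The acinar list, with 6 of 11 genes measured, averaged 12.70 to 12.91 on all arrays, the highest of the marker lists. The highest deposited value was 13.78, and whether values this bright still resolve a change was not tested. No acinar gene passed between BDC2.5/NOD.scid and NOD.scid or between NOD.scid and NOD, where 6.4% and 2.35% of all probe sets did. With 6 genes, this lack of a call says little about acinar cells. Sycn, a zymogen granule gene, was higher in BDC2.5/NOD against NOD (log2 difference 0.95) and lower in BDC2.5/NOD.scid against BDC2.5/NOD (-0.83), the opposite of Mt1 and Mt2 in both. The other 5 acinar genes passed in neither comparison, and the list medians were 0.06 and -0.01. Of all probe sets, 3.91% were higher in the first and 5.35% lower in the second. Of 9 macrophage genes, 7 were higher in BDC2.5/NOD.scid against NOD.scid, where 2.37% of all probe sets were, and the list averaged 6.18 to 6.33 on the BDC2.5/NOD.scid arrays, against 5.05 to 5.31 on the other 6. None of the 9 passed between BDC2.5/NOD and NOD or between NOD.scid and NOD (7.97% and 2.35% of all probe sets), where Mt1 and Mt2 fell. The fat cell list, with 3 of 5 genes measured, averaged 5.12 to 5.24 in NOD and 4.41 to 4.67 in the other groups. Of its genes, 2, Adipoq and Lpl, were lower in BDC2.5/NOD against NOD, as were 4.06% of all probe sets. Both were also lower in BDC2.5/NOD.scid against NOD, as were 5.07% of all probe sets, although Mt1 and Mt2 were higher there. Adipoq was lower in NOD.scid against NOD, as were 1.61% of all probe sets. Red cell and neutrophil genes were highest in NOD.scid, with list means of 7.78 to 7.87 and 6.08 to 6.09, against 6.20 to 6.62 and 4.30 to 4.82 in the other groups. Genes of liver, an organ rich in metallothioneins, averaged 4.37 to 4.62, near the array medians, and none of 5 measured passed in any comparison, nor did any of 7 T cell genes or 4 B cell genes, while 2.35% to 8.67% of all probe sets passed. The T cell and B cell lists were also dim, averaging 4.51 to 4.65 and 4.70 to 4.92 on all arrays. With so few genes, the lack of a call at these shares says little about lymphocytes. The fibroblast list, with 5 of 5 genes measured, averaged 6.82 to 6.87 in BDC2.5/NOD.scid, 6.52 to 6.59 in BDC2.5/NOD, 7.19 to 7.34 in NOD.scid and 7.39 to 7.41 in NOD. The islet list, with 7 of 8 measured, averaged 5.59 to 5.80, 5.91 to 5.95, 6.64 to 6.67 and 6.51 to 6.62 in the same groups. In BDC2.5/NOD against NOD, where Mt1 and Mt2 were lower, 5 of 5 fibroblast and 4 of 7 islet genes were lower. In BDC2.5/NOD.scid against NOD.scid, where Mt1 and Mt2 were higher, 4 of 5 fibroblast and 5 of 7 islet genes were lower. Of all probe sets, 4.06% and 4.03% were lower in these 2 comparisons, and no gene of either list was higher. The duct list, with 4 of 5 measured, averaged 5.87 to 6.12 on all arrays.

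Arrays also differed in the middle beta-actin control probe set, which read 9.26 to 9.55 on 1 array each of BDC2.5/NOD.scid, NOD.scid and NOD and 6.95 to 7.74 on the other 5. Within the high arrays the difference of BDC2.5/NOD.scid and NOD.scid was 1.50 for Mt1 and 1.36 for Mt2, and within the low arrays 1.56 and 1.48. Between NOD.scid and NOD it was -0.74 for Mt1 and -0.47 for Mt2 within the high arrays, and -0.61 and -0.45 within the low. The BDC2.5/NOD arrays were both low, so that their difference from NOD could be had within the low arrays only, at -0.55 for Mt1 and -0.43 for Mt2.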

How the data were processed

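The authors deposited 1 table of 12488 probe sets on 8 arrays, with log2 values. The base was taken from the range (2.021 to 13.78) and is not stated. Background correction, probe summary and normalization are not stated in these sources. RNA (about 10 ug) came from guanidine lysates per the labels' protocols. Array medians were 4.24 to 4.30, and the values were used as deposited. After 66 controls were set aside, limma 3.58.1 (R 4.3.3) modelled each of 12422 probe sets by group means over the 8 arrays, with a variance trend, two-sided moderated tests and Benjamini-Hochberg adjustment over all 12422 (threshold 0.05, 4 residual degrees of freedom). The fit was tested on simulated data. Symbols came from the platform annotation (1 symbol for 10833 probe sets, several for 396, none for 1193), and a listed gene was represented by its brightest probe set. Promoters came from RefSeq (GRCm38.p6), in which Mt1, Mt2, Mt3 and Mt4 all matched. That table also gave gene order, and no build is named with the values.

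The members and gene lists were chosen with earlier results of these data known. Every Mt1 or Mt2 probe set was named, with Mt3, Mt4, Mtf1, Slc30a1 and Nr3c1. Genes of the 4 lists whose values are given were taken from the up to 4 called ones with the largest difference in a comparison. Also named were the 8 genes nearest in pattern and the 3 nearest to its mirror image, each by its probe set of nearest pattern. Hmox1, Sycn and the Sgk1 difference between BDC2.5/NOD.scid and NOD were singled out after their values were seen. Alternatives covered normalization, scaling, filters, the variance prior, the arrays fitted, array weights, a beta-actin covariate, a replicate block, the threshold, and each array left out. Values within the beta-actin classes were added after seeing the data. Figures were drawn with matplotlib 3.10.9.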

Additional observations from a re-analysis of the deposited data

Results flagged for a closer look

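The difference made by the transgene was not the same on both backgrounds for either gene. The interaction, tested in the same limma fit, was 2.12 for Mt1 and 1.83 for Mt2 on the log2 scale (limma adjusted p = 6.08e-07 and 1.86e-06). Both BDC2.5/NOD.scid arrays lay above both NOD.scid arrays, and both BDC2.5/NOD arrays lay below both NOD arrays, for each gene. The BDC2.5/NOD pair enters this interaction, and any separate preparation of these arrays cannot be told apart from the group.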

How the results depend on the processing

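For Mt1, every comparison kept its direction and its side of the threshold in each of the 19 alternatives (18 for the interaction). For Mt2 the same held for the 3 comparisons with BDC2.5/NOD.scid and for the interaction. The difference of Mt2 between BDC2.5/NOD and NOD kept its direction in every setting. It lost its call under quantile normalization (-0.25), with the BDC2.5/NOD arrays as 1 sample (-0.41) and at a threshold of 0.01 (-0.41). With each array left out it lay between -0.43 and -0.38, and its call was lost without any 1 of the 4 arrays compared. Between NOD.scid and NOD, Mt2 missed the threshold of 0.01 (-0.46) and lay between -0.49 and -0.43 with each array left out. Here too the call was lost without any 1 of the 4 arrays compared. With the beta-actin covariate, the Mt2 difference of BDC2.5/NOD and NOD.scid, which never passed, changed sign to -0.0266, and the cause of these changes was not tested. In each group the title of 1 array ended in 1 and the other title held no replicate number, and that other array was called replicate 2. This numbering as a replicate block changed no call of Mt1 or Mt2: the differences stayed at 1.53 and 1.42 between BDC2.5/NOD.scid and NOD.scid, -0.58 and -0.41 between BDC2.5/NOD and NOD, -0.67 and -0.46 between NOD.scid and NOD, and 2.12 and 1.83 for the interaction. Deviations of same-numbered arrays correlated at -0.322 to 0.287 over the 6 pairs of groups, so the numbers were not taken to pair arrays. The count of called probe sets depended more on the settings. It was 795 and ranged from 432 to 1321 for BDC2.5/NOD.scid against NOD.scid, 990 (278 to 1568) for BDC2.5/NOD against NOD, 292 (71 to 781) for NOD.scid against NOD, 1037 (311 to 1363) for BDC2.5/NOD.scid against BDC2.5/NOD, 941 (377 to 1684) for BDC2.5/NOD.scid against NOD, 1077 (381 to 1444) for BDC2.5/NOD against NOD.scid and 586 (195 to 994) for the interaction. With 2 arrays a group, their number limits the precision of every value.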

Other observations

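The 3 genes nearest to the mirror image of the Mt1 and Mt2 pattern were Serpinh1, a collagen chaperone (distance 0.26), Tfdp1, a partner of E2F factors (0.27), and H2ax, a histone of replicating and damaged chromatin (0.28). Serpinh1 averaged 4.91 in BDC2.5/NOD.scid, 5.81 in BDC2.5/NOD, 5.89 in NOD.scid and 5.84 in NOD. H2ax averaged 5.03 in BDC2.5/NOD.scid, 5.77 in BDC2.5/NOD, 6.18 in NOD.scid and 5.66 in NOD. They were chosen for this pattern, so the values are a description, and other probe sets of Tfdp1 read -0.46 and 0.05 between BDC2.5/NOD.scid and NOD.scid where the chosen one read -0.91.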
